A study of Mus musculus with 6 samples.

Results

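Genes for enzymes that write or erase histone methylation, and for proteins of ATP-dependent chromatin remodelling complexes, were followed in F4/80+ cells sorted from mouse liver tumours. Members were the protein-coding genes whose mouse symbol begins with Kmt, Kdm, Setd, Nsd, Ehmt, Arid, Smarc or Chd and a following number where the family has one, with at least 10 counts in 3 libraries. Of 55401 rows in the deposited table, 74 carried such a symbol and 71 of them met the count rule. The rule used no difference between groups. In the Sms_OE group the tumours grew from Hepa 1-6 cells, a mouse hepatoma line, made to overexpress Sms (spermine synthase, which makes the polyamine spermine) with a lentivirus. In the control group they grew from Hepa 1-6 cells labelled wild-type control. Both kinds of cell were injected into the right lobe of the liver, tumours were taken 14 days later with no further treatment, and each group had 3 libraries. The labels give no strain, age or sex of the mice, no number of animals and no vector for the controls, so the p-values here reflect how these samples vary, and that variation may be technical. Sms was altered in the injected cells and not in the sorted cells that were sequenced.

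Histone lysine methylation marks active promoters and enhancers, transcribed gene bodies or silent chromatin according to which lysine carries it. Methyltransferases of the Kmt, Setd, Nsd and Ehmt families add the methyl groups, and demethylases of the Kdm family remove them. Remodellers of the SWI/SNF (BAF and PBAF), ISWI and CHD families use ATP to move or evict nucleosomes, and in macrophages such enzymes set which inflammatory and tissue-specific genes can be switched on. The name of the set is wider than its members: Arid proteins and most Smarc proteins are subunits without enzyme activity, Arid5a binds RNA, and Setd3 methylates actin.

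Sms itself, read from the sorted cells, had 32.9, 33.2 and 33.1 CPM (counts scaled to library size) in the Sms_OE libraries, against 26.0, 28.3 and 26.2 CPM in the control libraries. The groups did not overlap, and the difference was 1.23-fold (adjusted p = 0.038 in edgeR), a call lost in each of the 6 fits without 1 library (adjusted p between 0.0719 and 0.122) and with the replicate number as a block (0.0596). The libraries held 49833764 to 51123047 estimated counts in Sms_OE and 51583985 to 58154006 in control. The library markers did not all match between the groups. Of 12 macrophage markers, all measured, 2 rose and 5 fell, with a summed level of 6275 to 7419 CPM in Sms_OE and 6691 to 6847 CPM in control. The mitochondrial share of counts was 2.15 to 3.12% in Sms_OE and 4.99 to 7.13% in control. The ribosomal protein share was 2.31 to 2.74% in Sms_OE and 3.34 to 3.88% in control. Of 8 nuclear-retained RNAs 2 rose, and their mean log2 level (CPM + 2) was 5.45 to 5.61 in Sms_OE and 5.30 to 5.38 in control. Haemoglobin genes took 0.0225, 0.485 and 0.512% of counts in Sms_OE replicates 1, 2 and 3, against 0.00441 to 0.0172% in control. Hepatocyte and hepatoma markers fell in 10 of 12 cases, with summed levels of 438 to 667 CPM in Sms_OE and 842 to 1090 CPM in control. Of 13 stress and dissociation genes 8 rose and none fell, and of 10 proliferation markers 6 fell and 1 rose. Neutrophil markers rose in 2 of 11 cases, T and NK cell markers in 1 of 11, endothelial and stromal markers rose in 3 and fell in 3 of 11, dendritic cell markers rose in 1 and fell in 3 of 8, and none of 7 B and plasma cell markers passed. The part of these library features in the results below was not tested.

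More histone methylation and remodelling genes were higher than lower in F4/80+ cells from Sms_OE tumours. Of 71 members 70 passed the filter on low counts and were tested, and 35 of them rose, 5 fell and 30 did not pass an adjusted p of 0.05 in edgeR's quasi-likelihood test. Over all 18277 genes tested, 12.5% rose and 14.3% fell in that comparison, and over the protein-coding genes 14% and 17.1%. Members stood at 50% higher and 7.14% lower. Their median level was 72.0 CPM, against 7.96 CPM for all genes tested and 15.8 CPM for protein-coding genes tested. The shares thus compare sets of unlike level, and the part of level in them was not tested. The split differed by prefix in this fit: 7 of 9 Arid, 6 of 8 Kmt, 2 of 3 Nsd, 6 of 10 Chd and 9 of 16 Kdm genes rose and none of them fell. Setd had 4 higher and 1 lower of 10, and Smarc had 1 higher and 4 lower of 12. Both Ehmt genes missed the threshold. The prefixes also differed in median transcript length, from 4865 bases for Smarc to 10105 for Nsd. With the offsets for transcript length and GC content described below, 3 Arid, 3 Kmt, 2 Chd, 5 Kdm and 1 Setd genes were higher. No Nsd, Ehmt or Smarc gene was then higher, and 4 Smarc, 1 Setd and 1 Ehmt genes were lower. The changes were modest in size, with a median log2 fold change of 0.37 for members and -0.00060 for all genes tested, 14 members higher by at least 1.5-fold, and none reaching a log2 fold change of 1. The numbers higher and lower were 36 and 0 with library size alone as the scaling, where 13.8% and 9.78% of all genes were. With offsets for transcript length and GC content they were 14 and 6, where 11.5% and 9.66% of all genes were. The median log2 fold change was then 0.13 for members and 0.06 for all genes. Without Sms_OE replicates 2 and 3, the libraries rich in haemoglobin RNA, that median was 0.31 for members and -0.026 for all genes.

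**Figure D1:**
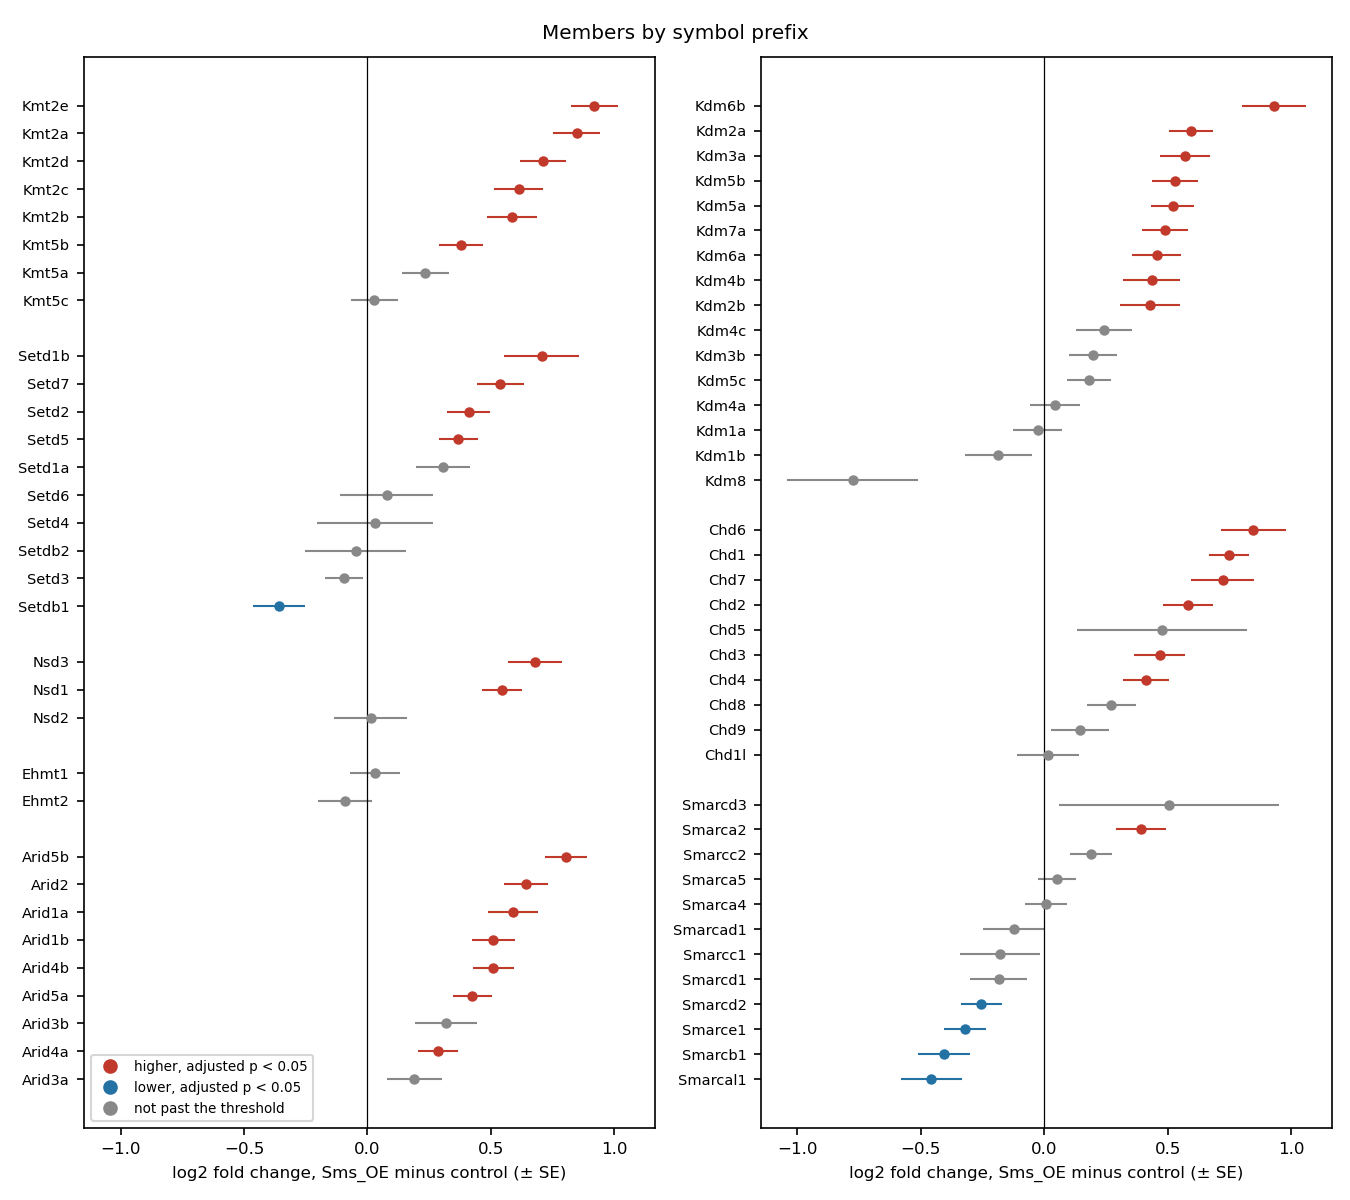
Log2 fold change of the 70 tested members, Sms_OE minus control, with its standard error, arranged by symbol prefix and ordered within it. Red points passed an adjusted p of 0.05 upward (35), blue downward (5), and grey points did not pass (30). Kmt, Arid and Chd genes lie to the right of 0 in this fit without length and GC offsets (with them Kmt5c, Chd5, Chd8 and Chd9 are below 0), and the blue points are Setdb1 and 4 Smarc genes.

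The shift stood in each Sms_OE library without the length and GC offsets, and such values are given here unless stated. The median member lay 0.30, 0.31 and 0.41 log2 units above the control mean in Sms_OE replicates 1, 2 and 3, while the control libraries lay between -0.03 and 0.05. Members took 0.770, 0.759 and 0.851% of all counts in the Sms_OE libraries, against 0.564, 0.569 and 0.510% in the control libraries. In 41 members the lowest Sms_OE library exceeded the highest control, and in 8 the highest Sms_OE library was under the lowest control, where 20.8% and 23.4% of all genes tested did so. With the length and GC offsets the median log2 fold change between the groups was 0.13 for members and 0.06 for all genes. Without them it was 0.19 for all genes of the longest length class, which held 53 of the 70 members tested. The shift in single libraries was not tested with the offsets. In bulk samples of this kind, more cells of a type with high levels and more RNA per cell cannot be told apart. Among the rises, 28 passed in all 6 fits that left out 1 library, and none of the 5 falls did. The number higher was 29 without control replicate 2, and the number lower was 3, 2 and 3 without Sms_OE replicates 1, 2 and 3, and 1, 0 and 2 without control replicates 1, 2 and 3.

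Promoters are shown for the members with the smallest p in each direction that matched the sequence table, Arid5b and Kmt2a among the rises and Smarcb1 and Smarcal1 among the falls, since genes of these families are usually read from CpG-rich promoters. Kmt2e, Chd1 and Smarce1 are named only. Each run is the 250 bases before a RefSeq start in GRCm38.p6, on the gene's strand, with the GC box (GGGCGG or its reverse complement CCGCCC, the motif bound by Sp1-type factors) in capitals. Arid5b lies at chr10:68278727-68278976 and Kmt2a at chr9:44881290-44881539, both on the minus strand. Smarcb1 lies at chr10:75921615-75921864 on the minus strand and Smarcal1 at chr1:72583001-72583250 on the plus strand.
Arid5b: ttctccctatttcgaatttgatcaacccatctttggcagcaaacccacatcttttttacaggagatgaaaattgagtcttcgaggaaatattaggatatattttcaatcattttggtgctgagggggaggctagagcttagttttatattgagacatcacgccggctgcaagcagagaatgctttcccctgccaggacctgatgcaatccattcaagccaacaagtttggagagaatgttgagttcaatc
Kmt2a: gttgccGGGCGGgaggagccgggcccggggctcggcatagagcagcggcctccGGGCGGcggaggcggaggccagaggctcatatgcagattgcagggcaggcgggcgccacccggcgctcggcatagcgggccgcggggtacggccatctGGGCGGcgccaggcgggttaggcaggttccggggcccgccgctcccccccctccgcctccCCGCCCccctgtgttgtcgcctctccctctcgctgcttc
Smarcb1: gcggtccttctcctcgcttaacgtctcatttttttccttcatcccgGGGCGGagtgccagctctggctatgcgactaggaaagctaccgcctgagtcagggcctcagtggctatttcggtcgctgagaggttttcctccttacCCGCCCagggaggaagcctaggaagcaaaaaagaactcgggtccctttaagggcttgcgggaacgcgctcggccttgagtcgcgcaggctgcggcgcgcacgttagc
Smarcal1: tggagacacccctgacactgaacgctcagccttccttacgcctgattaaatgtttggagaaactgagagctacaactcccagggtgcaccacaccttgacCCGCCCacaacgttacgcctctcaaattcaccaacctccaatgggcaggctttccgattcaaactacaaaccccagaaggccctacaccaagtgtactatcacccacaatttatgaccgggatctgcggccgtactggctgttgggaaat
The Kmt2a stretch held 29 CpG dinucleotides and 4 GC boxes, the Smarcb1 stretch 21 and 2, the Smarcal1 stretch 9 and 1, and the Arid5b stretch 4 and none. Of the 71 members 52 had a sequence, and 36 of them, 69.2%, held a GC box on either strand, against 45.8% of 17491 protein-coding genes. Among members with a sequence it stood in 16 of 20 that rose, in 4 of 4 that fell and in 16 of 27 that did not pass. The CpG ratio, observed over expected, was above 0.6 in 88.5% of members with a sequence and in 47.8% of protein-coding genes. For a gene with several annotated starts the highest ratio was taken, and a motif counted if any of its windows held it. A TATA box (TATAAA or TTTATA) was found in 2 of the 52, which is 3.85% against 13.7%, and the AP-1 motif (TGANTCA, its own reverse complement) in 7.69% against 7.19%. These matches describe the letters of the window.

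The Kmt genes, most of which encode methyltransferases for lysine 4 of histone H3 (Kmt2) or for histone H4 (Kmt5), had a median log2 fold change of 0.60. It was 0.17 with the length and GC offsets. Kmt2e, an MLL family protein that binds methylated histone H3, had 176, 203 and 204 CPM in Sms_OE and 95.8, 109 and 103 CPM in control. All Sms_OE libraries lay above all controls, with a log2 fold change of 0.92 ± 0.094 (SE; edgeR adjusted p = 0.00028), the smallest p among members. Kmt2e overlaps Srpk2 on the opposite strand, which rose too (log2 0.37), and the 2 genes' reads could be mixed. Kmt2a, or MLL1, which keeps Hox genes active, had 108, 93.0 and 113 CPM in Sms_OE and 56.2, 60.6 and 58.3 CPM in control. Its groups did not overlap either (log2 0.85 ± 0.095, adjusted p = 0.00043). Kmt2c and Kmt2d, or MLL3 and MLL4, which monomethylate enhancers, rose 1.53-fold and 1.64-fold. Kmt2d had 268, 260 and 298 CPM in Sms_OE and 173, 174 and 158 CPM in control, and Kmt2c had 143, 142 and 148 against 83.4, 106 and 93.5 CPM. Both were separated by group, with adjusted p of 0.00077 for Kmt2d and 0.0020 for Kmt2c. Kmt2b rose with a log2 fold change of 0.58 and Kmt5b, which dimethylates histone H4, with one of 0.38 (adjusted p = 0.0519 without control replicate 1). The monomethylase Kmt5a and the trimethylase Kmt5c gave 0.23 and 0.03 and did not pass.

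The Setd genes moved in both directions. Setd7, a lysine methyltransferase of histone and other proteins, had 84.9, 90.4 and 100 CPM in Sms_OE and 58.9, 67.2 and 63.6 CPM in control, without overlap (log2 0.54 ± 0.094, adjusted p = 0.0030). Setd1b, the catalytic subunit of a COMPASS complex that methylates promoters, had 55.3, 50.9 and 72.6 CPM in Sms_OE and 37.8, 41.6 and 30.3 CPM in control. Its Sms_OE replicate 3 stood above the other libraries, and the groups were separate (log2 0.71 ± 0.15, adjusted p = 0.0080). Setd2, which trimethylates lysine 36 of histone H3 in transcribed genes, averaged 123 ± 7.9 CPM in Sms_OE and 92.4 ± 6.6 CPM in control (SD, n = 3 each; log2 0.41, and adjusted p = 0.0539 without control replicate 2). Setd5 averaged 90.7 ± 1.6 CPM in Sms_OE and 70.3 ± 3.4 CPM in control (log2 0.37). Setdb1, which trimethylates lysine 9 of histone H3 and silences retroviral elements, was the 1 Setd gene that fell. It had 36.5, 35.3 and 37.9 CPM in Sms_OE, against 51.0, 49.2 and 40.6 CPM in control, with a log2 fold change of -0.36 ± 0.11 and an adjusted p of 0.031. The groups did not overlap, but the call held in only 1 of the 6 fits without a library, with adjusted p up to 0.108, and was lost with the replicate number as a block (0.0549). Setd1a, Setd3, Setd4, Setd6 and Setdb2 ranged from -0.09 to 0.31 and did not pass.

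Nsd1 and Nsd3, which dimethylate lysine 36 of histone H3, rose. Nsd3 had 343, 451 and 412 CPM in Sms_OE and 245, 259 and 250 CPM in control (log2 0.68 ± 0.11, adjusted p = 0.0021), and Nsd1 had 167, 158 and 175 against 118, 114 and 110 CPM (log2 0.54 ± 0.081, adjusted p = 0.0015). In both genes the lowest Sms_OE library lay above the highest control. Nsd2 gave 0.01 ± 0.15 and did not pass. Ehmt2 (G9a) and Ehmt1 (GLP), which act together as mono- and dimethylases for lysine 9 of histone H3, gave -0.09 ± 0.11 and 0.03 ± 0.10. Ehmt2 had 111, 97.5 and 133 CPM in Sms_OE and 122, 123 and 118 CPM in control, so the Sms_OE libraries lay on both sides of the controls.

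**Figure D2:**
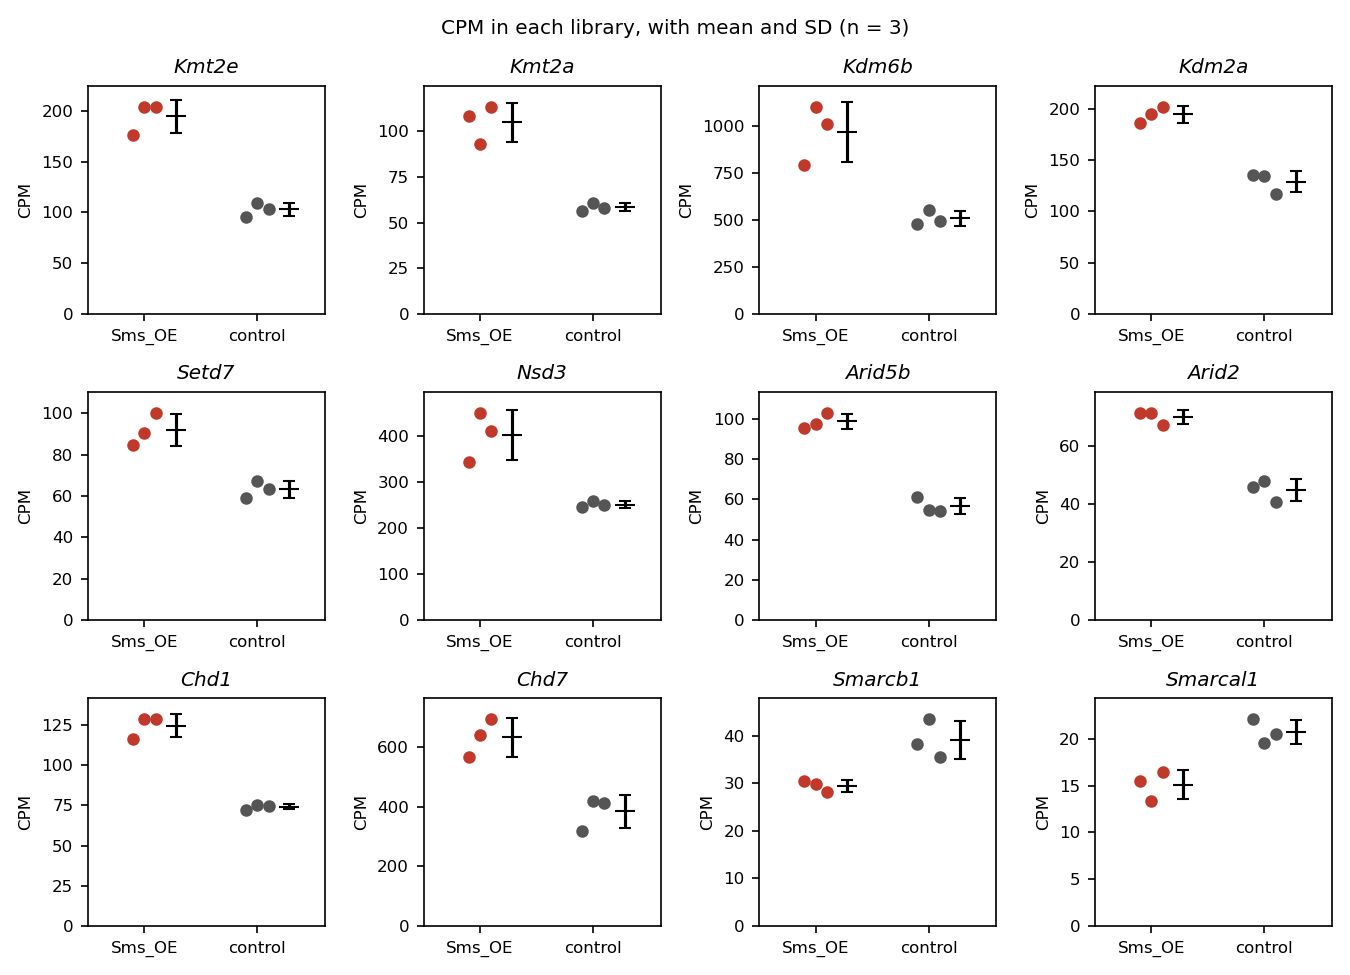
CPM of 12 members in each library, Sms_OE left and control right in every panel, with the mean and SD beside the 3 points. The first 10 panels show genes that rose, where the lowest Sms_OE point lies above the highest control point, and the last 2, Smarcb1 and Smarcal1, show genes that fell, where the order is turned round.

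Among the demethylases, Kdm6b was the member with the highest level per length, 145 CPM per kilobase in Sms_OE and 76.3 in control, and the member with the largest log2 fold change. Kdm6b (JMJD3) removes methyl groups from lysine 27 of histone H3 and is induced in macrophages by inflammatory signals and by interleukin 4. It had 792, 1100 and 1009 CPM in Sms_OE, against 479, 551 and 493 CPM in control. The groups were far apart, although the Sms_OE libraries varied more (log2 0.93 ± 0.13, 1.91-fold, adjusted p = 0.0011). Its antisense transcript Kdm6bos had 14.9 to 18.1 CPM in Sms_OE and 12.7 to 15.7 CPM in control and did not pass (log2 0.24), but passed upward with the length and GC offsets (log2 0.64, adjusted p = 0.013). Kdm6a (UTX), the X-linked enzyme for lysine 27, had 77.3, 66.1 and 83.8 CPM in Sms_OE and 53.5, 56.7 and 55.6 CPM in control, without overlap (log2 0.46 ± 0.10, adjusted p = 0.0086). Kdm2a, which binds unmethylated CpG and acts on lysine 36, had 186, 195 and 202 CPM in Sms_OE and 135, 134 and 117 CPM in control (log2 0.59 ± 0.090, adjusted p = 0.0016). Kdm3a, an enzyme for lysine 9 that hypoxia induces, had 121, 150 and 154 CPM in Sms_OE and 92.4, 97.3 and 96.5 CPM in control (log2 0.57 ± 0.10, adjusted p = 0.0031). Kdm5a, which removes methyl groups from lysine 4, had 82.8, 74.8 and 87.3 CPM in Sms_OE and 57.7, 57.3 and 55.8 CPM in control (log2 0.52 ± 0.087, adjusted p = 0.0024). For these demethylases no Sms_OE library fell to the level of a control.

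Kdm5b, Kdm7a, Kdm4b and Kdm2b rose by log2 fold changes of 0.53, 0.49, 0.43 and 0.43. The call on Kdm4b was lost without Sms_OE replicate 3, control replicate 2 or control replicate 3 (adjusted p of 0.0713, 0.0920 and 0.0659). That on Kdm2b was lost without Sms_OE replicate 1 or 3 or without control replicate 2 or 3 (adjusted p between 0.0518 and 0.0899). The other 7 demethylases tested did not pass: Kdm1a (LSD1) gave -0.03, and Kdm4a, Kdm5c, Kdm3b, Kdm4c and Kdm1b lay between -0.19 and 0.24. Kdm8 had the lowest log2 fold change of all members, -0.78 ± 0.27, at 1.38, 1.93 and 2.36 CPM in Sms_OE and 3.44, 3.19 and 3.08 CPM in control. The groups did not overlap, yet the adjusted p was 0.055. Kdm4d met the count rule with 26, 18 and 8 counts in Sms_OE and 10, 0 and 4 in control, and was too low to be tested. Kdm5d on chromosome Y had 0, 0 and 11 counts in Sms_OE and none in control, and with Smarca1 and Arid3c, at no more than 7 and 0 counts in any library, was left out.

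Arid genes rose in 7 of 9 cases, and all 9 log2 fold changes were above 0. Arid5b, a partner of the demethylase Phf2, had 95.6, 97.7 and 103 CPM in Sms_OE and 61.2, 54.6 and 54.1 CPM in control, a wide gap for groups with so little spread (log2 0.80 ± 0.086, 1.75-fold, adjusted p = 0.00034). The subunits that place SWI/SNF complexes on DNA rose as well in this fit without length and GC offsets. Arid2, which marks the PBAF form, had 71.5, 71.7 and 67.4 CPM in Sms_OE and 45.8, 48.1 and 40.9 CPM in control (log2 0.64 ± 0.090, adjusted p = 0.0012). Arid1a, a BAF subunit often mutated in liver cancer, had 226, 195 and 242 CPM in Sms_OE and 151, 151 and 138 CPM in control (log2 0.59 ± 0.10, adjusted p = 0.0026). Its paralogue Arid1b had 60.9, 55.5 and 59.8 CPM in Sms_OE and 41.1, 43.0 and 39.6 CPM in control (log2 0.51 ± 0.086, adjusted p = 0.0026). None of these overlapped between groups. With the length and GC offsets Arid2 (0.36) still passed, while Arid1a (0.19, edgeR adjusted p = 0.113) and Arid1b (0.08, adjusted p = 0.484) did not. Arid4b, which works with Sin3 deacetylase complexes, averaged 67.7 ± 4.0 CPM in Sms_OE and 47.5 ± 0.63 CPM in control (SD, n = 3 each; log2 0.51). Arid5a, which stabilizes interleukin 6 mRNA, rose with a log2 fold change of 0.42, and Arid4a with one of 0.29. The Arid4a call was lost without Sms_OE replicate 3 or any control (adjusted p between 0.0832 and 0.0963). Arid3a and Arid3b, at 0.19 and 0.32, did not pass.

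The Smarc genes had a median log2 fold change of -0.15, or -0.20 with the length and GC offsets, and more falls than rises. Smarcb1, a core subunit of all SWI/SNF complexes, had 30.6, 29.9 and 28.1 CPM in Sms_OE and 38.2, 43.5 and 35.6 CPM in control (log2 -0.41 ± 0.10, adjusted p = 0.018). Smarce1, a DNA-binding subunit, had 52.4, 46.4 and 47.9 CPM in Sms_OE and 61.2, 59.2 and 62.9 CPM in control (log2 -0.32 ± 0.086, adjusted p = 0.021). Both lay below every control in every Sms_OE library. Smarcal1, which reanneals DNA at stalled replication forks, had 15.4, 13.4 and 16.5 CPM in Sms_OE and 22.1, 19.6 and 20.5 CPM in control (log2 -0.46 ± 0.12, adjusted p = 0.022). Smarcd2, a subunit known for its role in granulocyte development, had 97.1, 89.8 and 102 CPM in Sms_OE and 112, 114 and 119 CPM in control (log2 -0.26 ± 0.082, adjusted p = 0.043). These were small, separated falls, and all 4 calls were lost with library size alone as the scaling (adjusted p between 0.0669 and 0.190). The Smarcd2 call was also lost with RLE factors (0.0595), upper-quartile factors (0.0715), no low-count filter (0.0547) and a filter at 1 CPM (0.0526). Leaving out 1 library ended the Smarcb1 call in 2 of 6 fits, without Sms_OE replicate 3 (adjusted p = 0.0606) and without control replicate 2 (0.0802). The Smarce1 and Smarcal1 calls ended in 4 fits each (adjusted p up to 0.0627 and 0.0752), and the Smarcd2 call in 5 (up to 0.119). Smarce1-ps1, a processed copy of Smarce1 at 1.51 ± 0.11 CPM in Sms_OE and 2.80 ± 0.50 CPM in control (SD, n = 3 each), can share its reads.

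Smarca2 and Smarca4 are the alternative ATPases of SWI/SNF. Smarca2 (BRM) rose, with 59.2, 67.2 and 64.4 CPM in Sms_OE and 43.5, 48.4 and 53.8 CPM in control (log2 0.39 ± 0.10, adjusted p = 0.018), a call lost without Sms_OE replicate 2 or 3 or control replicate 1 or 2 (adjusted p between 0.0571 and 0.0800). Smarca4 (BRG1) had 103, 92.0 and 105 CPM in Sms_OE and 101, 103 and 94.0 CPM in control, with groups on top of each other (log2 0.01 ± 0.086). With the length and GC offsets Smarca2 did not pass (0.24, edgeR adjusted p = 0.155), and Smarca4 passed downward (-0.27, adjusted p = 0.025). Smarca5, the ISWI ATPase, gave 0.05, and the scaffold subunits Smarcc1 and Smarcc2 gave -0.18 ± 0.16 and 0.19 ± 0.085. Smarcad1, Smarcd1 and Smarcd3 did not pass either. Smarcd3 was low, at 1.0 to 3.8 CPM, with the widest spread of any member in Sms_OE.

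Chd remodellers, most of which carry paired chromodomains that read histone tails, all had log2 fold changes above 0, although with the length and GC offsets Chd5, Chd8 and Chd9 were at -0.01, -0.01 and -0.28. Chd1, which binds promoters marked at lysine 4 and keeps chromatin open, had 116, 129 and 128 CPM in Sms_OE and 72.3, 75.1 and 74.9 CPM in control, a clean separation (log2 0.75 ± 0.081, adjusted p = 0.00034). Chd6 had 24.7, 27.5 and 33.1 CPM in Sms_OE and 16.6, 14.7 and 16.2 CPM in control (log2 0.85 ± 0.13, adjusted p = 0.0017). Chd7, mutated in CHARGE syndrome, was the most abundant Chd gene per length and had 565, 640 and 695 CPM in Sms_OE and 320, 418 and 413 CPM in control (log2 0.72 ± 0.13, adjusted p = 0.0031). Control replicate 1 was the lowest of the Chd7 values, and the groups did not overlap. Chd2 averaged 216 ± 23 CPM in Sms_OE and 144 ± 7.5 CPM in control (SD, n = 3 each; log2 0.58). Chd3 and Chd4, the alternative ATPases of the NuRD complex, rose 1.38-fold and 1.33-fold. Chd4 had 305, 312 and 332 CPM in Sms_OE and 256, 238 and 219 CPM in control, and its adjusted p was 0.0096, or 0.0537 without control replicate 2. Chd5, Chd8, Chd9 and Chd1l did not pass, with log2 fold changes from 0.01 to 0.48.

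Members are long genes, and fold changes in these libraries moved with transcript length. The median longest annotated transcript was 6246.5 bases for members and 2817 for all genes tested, and 53 of the 70 lay in the longest of 4 equal length classes of genes, at 4315 bases or more. All 35 rises were in that class, and so were Setdb1 and Smarcb1. Among all genes of the longest class 26.3% rose and 7.26% fell, against 66% and 3.77% of the members there. The 17 shorter members, 6 in the class from 1573 to 2817 bases and 11 in that from 2818 to 4314, gave 0 rises and 3 falls. Among all genes of these classes 6.95% and 11.9% rose, and 19.2% and 13.1% fell. With offsets per library that remove a smooth trend in transcript length and GC content, 14 members were higher and 6 lower, where 11.5% and 9.66% of all genes were. In the longest class 24.5% of members were then higher, beside 12.7% of all genes. Lower were 3 of the 53 members there, beside 12% of all genes. The median member log2 fold change became 0.13, beside 0.06 for all genes.

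**Figure D3:**
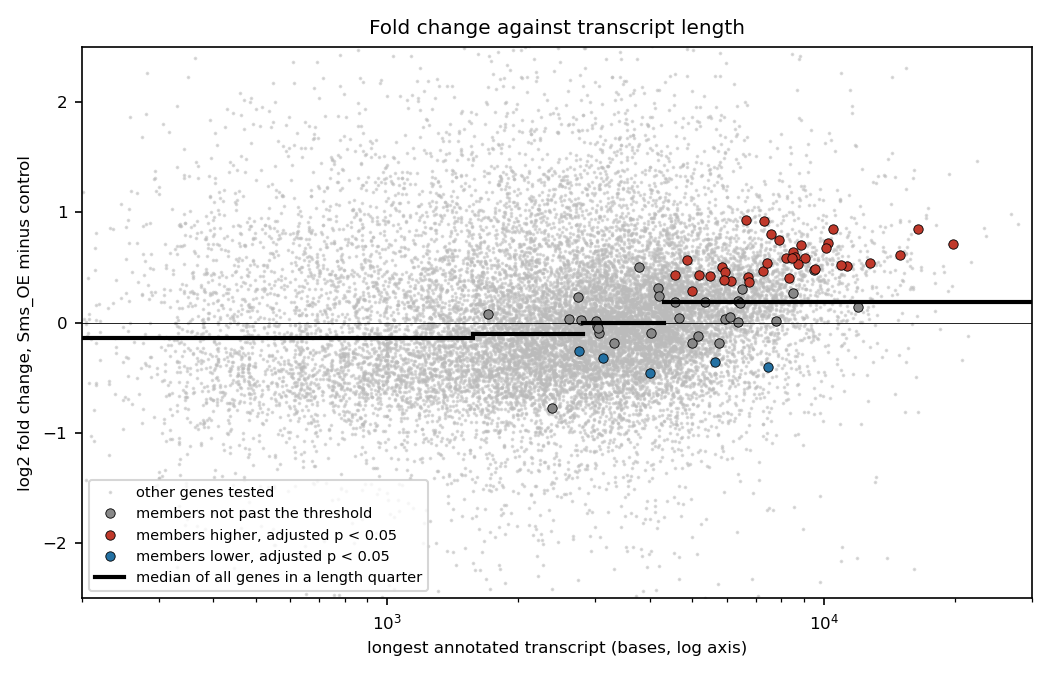
Log2 fold change, Sms_OE minus control, against the longest annotated transcript in bases (log axis) for all genes tested (grey dots; the few outside the plotted range are not drawn) and members (circles, coloured by call). Black lines give the median of all genes in each length class, from -0.14 in the shortest to 0.19 in the longest, and every red circle lies in the longest class.

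The offsets divided the rises. Kmt2e (0.69), Arid5b (0.56), Kdm6b (0.54), Kdm3a (0.52), Chd1 (0.51), Chd6 (0.47), Arid4b (0.41), Arid2 (0.36), Kmt2a (0.35), Kdm6a (0.33), Kdm2b (0.32), Kdm2a (0.31) and Setd7 (0.30) still passed, with these log2 fold changes. The 22 other rises did not pass. Kmt2d, whose longest transcript has 19823 bases, gave 0.04 ± 0.072 in place of 0.71, Arid1b 0.08 in place of 0.51, Nsd1 0.10 in place of 0.54 and Kmt2c 0.12 in place of 0.61. Of the falls, Smarcb1 (-0.64), Setdb1 (-0.48), Smarcal1 (-0.44) and Smarcd2 (-0.24) passed, and Smarce1 (-0.15) did not. Kmt5a (0.38) passed upward, and Ehmt2 (-0.31) and Smarca4 (-0.27) passed downward, although they had not without the offsets. The part of transcript length in these differences, beyond the offsets, was not tested.

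**Figure D4:**
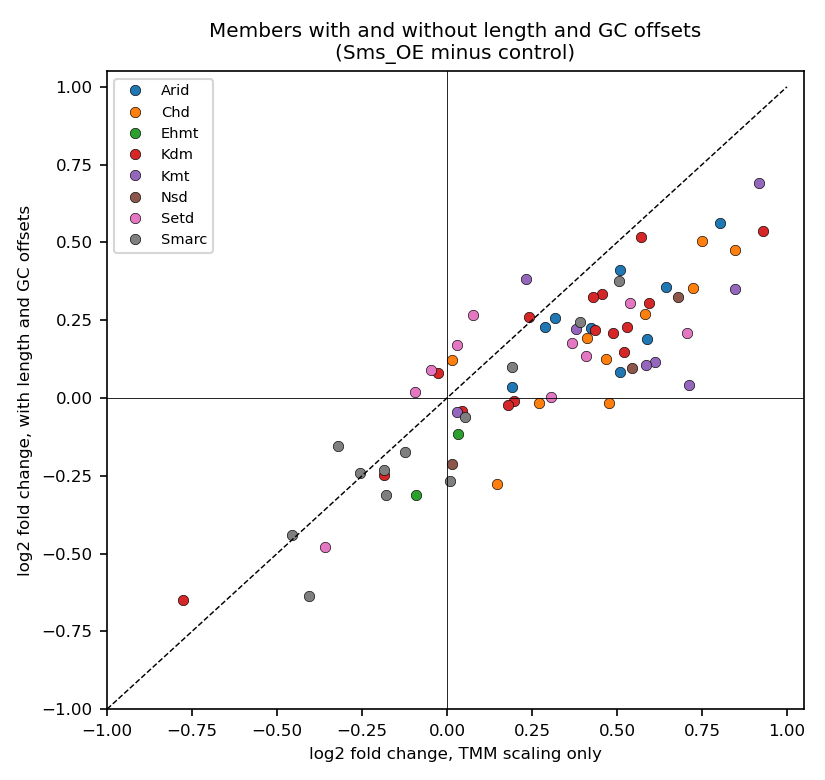
Log2 fold change of each tested member, Sms_OE minus control, with TMM scaling alone (horizontal) and with length and GC offsets (vertical), coloured by prefix. Most points to the right of 0 lie below the dashed line of equal values, and 7 of the 12 Smarc genes (grey) lie in the lower left, where both values are under 0, as do Setdb1 and Kdm8.

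Ratios between related members in 1 library do not depend on scaling, but they keep any trend with transcript length and GC content. With the length and GC offsets the log2 fold changes of Kdm6a and Kdm6b were 0.33 and 0.54. Those of Smarca2 and Smarca4 were 0.24 and -0.27. The ratios below were taken without the offsets. Smarca2 over Smarca4 was -0.79, -0.45 and -0.70 (log2) in Sms_OE and -1.21, -1.08 and -0.80 in control, higher in each Sms_OE library than in each control by a mean of 0.38. Kdm6a over Kdm6b was -3.35, -4.05 and -3.58 in Sms_OE and -3.15, -3.27 and -3.14 in control, a mean difference of -0.47, again without overlap. Both gave p = 0.1 in a two-sided exact permutation test, the smallest that 3 against 3 can give, and an adjusted p of 0.3 over the 6 pairs. The other 4 pairs overlapped: Smarcc1 over Smarcc2 differed by -0.38, Arid1a over Arid1b by 0.08, Kmt2c over Kmt2d by -0.09 and Chd3 over Chd4 by 0.05, with exact p between 0.2 and 0.7. None of the 6 differences could pass 0.05 in a design of this size.

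**Figure D5:**
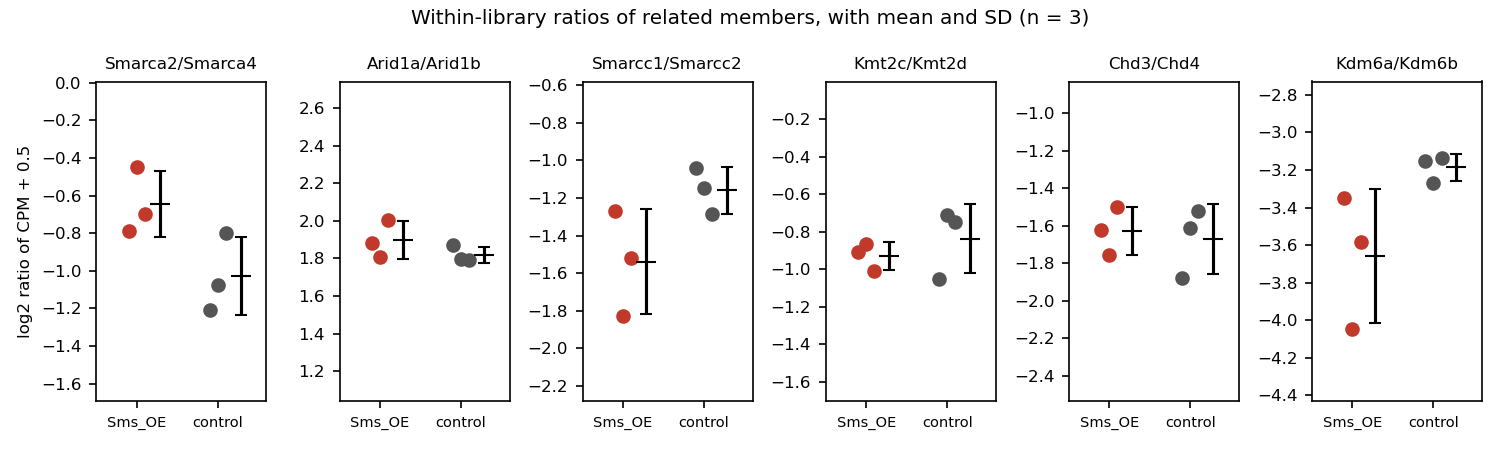
Log2 ratio of CPM (0.5 added) between 6 pairs of related members in each library, Sms_OE left and control right, with the mean and SD (n = 3). The panels have axes of equal span. Points of the 2 groups are separate for Smarca2/Smarca4 and Kdm6a/Kdm6b and overlap in the other 4 pairs.

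Partners of the members outside the symbol prefixes moved in both directions. Of 133 such genes tested, each counted once over 8 lists, 34 rose (25.6%) and 25 fell (18.8%), where 14% and 17.1% of protein-coding genes and 12.5% and 14.3% of all genes did. Their median log2 fold change was 0.07. Polycomb repressive complex 2 and other methyltransferases had 5 higher and 4 lower of 21. Prdm2, a methyltransferase-related zinc finger protein, rose with 105, 112 and 107 CPM in Sms_OE and 57.3, 59.6 and 53.4 CPM in control (log2 0.93 ± 0.082, adjusted p = 0.00018), and Ash1l, an enzyme for lysine 36, rose by 0.70 (adjusted p = 0.00051). Shared COMPASS subunits, on which the Kmt2 enzymes depend, were mostly not called: Ncoa6 rose (log2 0.54), Dpy30 (-0.58) and Ash2l fell, and 11 of 14 did not pass. Other JmjC demethylases and cofactors had 5 higher and 2 lower of 12, with Jmjd1c at 0.55 and Hr, the hairless corepressor, at -2.52 ± 0.27 (1.55, 1.81 and 1.53 CPM in Sms_OE, against 13.1, 7.32 and 7.64 CPM in control).

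Among complex partners, other BAF and PBAF subunits had 4 higher and 5 lower of 18, with Bicra at 0.67 and Actb, beta-actin, at -0.66. Other NuRD subunits had 2 higher and 5 lower of 12, with Mta3 at 0.51 and the deacetylase Hdac2 at -0.64 ± 0.10, while the NuRD ATPases Chd3 and Chd4 rose. With the length and GC offsets neither Chd3 (0.12) nor Chd4 (0.19) passed, and 1 of the other NuRD subunits was higher and 3 were lower. ISWI partners had 6 higher and 4 lower of 11. The rises included the large subunits Bptf (0.77) and Baz2b (0.57), and the falls were Chrac1, Pole3, Rbbp4 and Rbbp7, named after their values were seen. INO80, SRCAP and TIP60 subunits had 6 higher and 3 lower of 23, with Ino80d at 0.82 and the helicase Ruvbl1 at -0.68. Readers of histone methylation and Polycomb complex 1 had 5 higher and 2 lower of 24, with Phc3 at 2.27 ± 0.11. The median longest transcript of the partners was 3763 bases. With the length and GC offsets 21 of the 133 partners tested were higher and 16 lower, where 11.5% and 9.66% of all genes were.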

How the data were processed

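RNA of F4/80+ cells was sequenced in 6 libraries, 3 per group, from oligo(dT)-selected, dUTP-marked preparations, per the labels' protocols. StringTie 2.1.6, HISAT2 2.2.1, FastQC 0.11.9, cutadapt 1.9 and DESeq2 appear, per the submitters' processing notes. Their build, annotation and strand setting were not given in the sources used here. The authors deposited whole-number estimated counts per gene, not normalized. How coverage became counts is not given, so counting error is uncertain, and reads of genes overlapping on opposite strands (11 members overlap one of at least 5 CPM, such as Setdb1 with Cers2 and Kmt2e with Srpk2) could be mixed.

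Symbols, coordinates and transcript lengths came from GENCODE M21 (GRCm38) by identifier, for 55141 of 55401 rows; promoters came from RefSeq (GRCm38.p6). The test was edgeR 4.0.16 in R 4.3.3: filterByExpr, TMM factors, robust quasi-likelihood fit and Benjamini-Hochberg adjustment over the 18277 genes kept. Fold changes are Sms_OE over control, standard errors derive from the F statistic, and CPM use TMM-scaled library sizes. Levels per kilobase divide by the longest annotated transcript of any type, which need not be the one expressed. The length classes and offsets use the same length. Offsets were splines with 5 degrees of freedom in log length and GC, fitted per library to genes whose mean log2 CPM passed 2 and held constant beyond the percentiles 0.5 and 99.5. No libraries of a group were duplicates (at most 17.3% identical counts). The main edgeR fit, without the offsets, was tested on simulated counts that held no trend in length or GC content.

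Members and lists were chosen with earlier results of these data known. Members shown per library were up to 4 per prefix by smallest p, the most abundant one, and the 6 pairs; Setdb1 and Kdm8 were added after their values were seen. Partners named were up to 2 per list by smallest p, and 1 result is not reported here. Alternatives were other scalings, filters, DESeq2 1.42.0, limma 3.58.1 (voom), the offsets, a replicate block and each library left out.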

Additional observations from a re-analysis of the deposited data

How the results depend on the processing

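Members called higher and lower were 35 and 5. With the length and GC offsets they were 14 and 6, and with these offsets and the replicate block 15 and 6. With both haemoglobin-rich libraries (Sms_OE replicates 2 and 3) left out, an alternative chosen after seeing the data in which the lone Sms_OE library is assumed to vary like the controls, they were 17 and 0, beside 690 and 694 of all genes. Leaving out 1 library gave 29 to 35 higher and 0 to 3 lower, beside 1366 to 2015 and 1684 to 2473 of all genes (1366 without control replicate 2 and 1498 without control replicate 3 for the rises), 20 to 31 and 15 to 19 of the other chromatin genes. With library size alone 0 members were lower, and 2521 genes were higher and 1788 lower. For the other chromatin genes, 34 higher and 25 lower, library size alone gave 14 lower, the offsets 21 higher and 16 lower, offsets and block 20 higher, and the fit without the haemoglobin-rich libraries 14 higher and 2 lower. The median member log2 fold change was 0.37 and moved to 0.44 with library size alone, 0.13 with the offsets, 0.13 with offsets and block and 0.31 without the haemoglobin-rich libraries. The medians and counts under the other scalings, filters and tools stayed near the values given, with 34 to 37 members higher. The causes were not tested.

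Of the 35 rises, 9 were called in all 17 alternatives: Kmt2e, Kmt2a, Kdm6b, Kdm2a, Kdm6a, Arid5b, Arid2, Chd1 and Chd6. None of the 5 falls was. Smarca4, at 0.01, was -0.0094 with no low-count filter, -0.27 with the offsets, -0.27 with offsets and block, and ranged from -0.041 to 0.055 without 1 library. Smarcc1 was 0.059 without the haemoglobin-rich libraries. The Chd3/Chd4 ratio difference ranged from -0.059 to 0.12 without 1 library. Differences in mean log2 CPM ranged from -0.26 to 0.11 for neutrophil markers, from -0.011 to 0.088 for B and plasma cell markers and from -0.15 to 0.029 for endothelial and stromal markers without 1 library, the last being 0.0055 with library size alone. Same-numbered libraries of the groups had correlated deviations of 0.19, 0.048 and -0.060, and Sms_OE replicate 2 correlated best with control replicate 3, so the numbers were not taken as pairs. With the replicate block 37 members were higher and 4 lower. Depth limits Kdm8, Smarcd3 and Chd5 most, at mean levels of 2.56, 2.44 and 1.12 CPM.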
